A study of Mus musculus with 12 samples.

Results

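The matrix metalloproteinases (MMPs), the ADAMTS proteases with their catalytically inactive relatives, the ADAMTS-like proteins (ADAMTSL), and the tissue inhibitors of metalloproteinases (TIMPs) were followed in a cell model of beige fat. Members were all genes whose symbol began with Mmp or Timp and a digit, or with Adamts. The rule found 43 of the 18255 genes listed in any library, namely 18 MMPs, 16 ADAMTS proteases, 5 ADAMTSL genes and 4 TIMPs. The cells were 3T3-L1, a preadipocyte line derived from mouse embryo fibroblasts that hormones can turn into fat cells, and their RNA was sequenced in 4 groups of 3 libraries. The groups were cells overexpressing LIGHT after beige differentiation, control cells after beige differentiation, undifferentiated LIGHT cells and undifferentiated control cells. LIGHT is a cytokine of the tumour necrosis factor family encoded by Tnfsf14. Cells of every group grew in high glucose DMEM with 10% serum, and the differentiated ones also had a cocktail of dexamethasone (2 µg/ml), IBMX (0.5 mM), rosiglitazone (1 µM), triiodothyronine (1 nM), insulin (5 µg/ml) and indomethacin for 48 h, followed by medium with rosiglitazone, triiodothyronine and insulin. Not given in the sources used here are the vector, its promoter, how many clones stand behind each line and the day of harvest. Nor do the labels tell whether a group's 3 libraries stem from separate cultures, and p-values therefore cover the spread between these libraries alone.

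MMPs are zinc proteases that cut collagens, gelatin and other matrix proteins, and most are secreted as inactive precursors. ADAMTS proteases carry thrombospondin repeats that hold them in the matrix, where some cut the large proteoglycans and others trim procollagens, while ADAMTSL proteins share those repeats but have no protease domain. TIMPs block the active site of MMPs and, in the case of TIMP-3, of several ADAMTS and ADAM proteases. Remodelling of the collagen-rich pericellular matrix by the membrane protease MMP-14 is known to be needed for normal fat cell development in mice.

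Promoters are shown for a block of neighbouring genes on chromosome 9, chosen because all 3 of its members that could be tested had lower counts in undifferentiated LIGHT cells than in undifferentiated control cells. Mmp10, one of the 3, was tested in 10 libraries alone and passed the low-count filter only through undifferentiated control libraries. It had 33 counts there, against 6, 3 and 0 in undifferentiated LIGHT, differentiated control and differentiated LIGHT libraries. Its direction was thus partly set by the filter, and the choice of the block is not a result. RefSeq windows from 250 bases before to 50 bases after the start (GRCm38.p6) were at hand for 29 of the 43 members. The letters TGAGTCA, the consensus of the transcription factor AP-1, were searched on both strands. They were found for 6 of these 29 members (20.7%), against 1607 of 27025 genes (5.95%). Some genes have more than 1 window, and a match in any of them counted. Those 6 members were Mmp13, Mmp12, Mmp1b, Mmp3, Mmp1a and Mmp10, which follow each other on chromosome 9 in this order. As neighbours they may not be independent cases, and whether they share their origin was not tested. The letters of a PPAR-RXR element of the DR1 kind, AGGTCA, any base, AGGTCA, searched likewise on both strands, were found for 0 of the 29 members and for 13 of the 27025 genes (0.0481%). In the lines that follow, capitals mark the AP-1 letters, which lie 46 to 40 bases before the start in Mmp3, 35 to 29 bases before it in Mmp13, where they read TGACTCA on the shown strand, and 63 to 57 bases before it in Mmp10. A match is a description of the sequence and says nothing of binding in these cells.
Mmp3, chr9:7445572-7445871, + strand: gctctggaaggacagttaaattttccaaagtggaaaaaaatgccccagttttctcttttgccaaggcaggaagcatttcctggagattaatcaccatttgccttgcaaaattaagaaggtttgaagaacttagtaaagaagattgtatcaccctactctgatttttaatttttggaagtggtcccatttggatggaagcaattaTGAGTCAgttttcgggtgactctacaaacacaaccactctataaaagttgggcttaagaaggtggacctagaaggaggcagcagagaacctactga
Mmp13, chr9:7272264-7272563, + strand: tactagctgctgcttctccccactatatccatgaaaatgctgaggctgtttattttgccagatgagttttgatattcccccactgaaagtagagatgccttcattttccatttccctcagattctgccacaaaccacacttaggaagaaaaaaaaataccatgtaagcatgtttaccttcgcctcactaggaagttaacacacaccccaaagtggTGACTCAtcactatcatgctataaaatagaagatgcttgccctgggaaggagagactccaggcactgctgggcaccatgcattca
Mmp10, chr9:7502092-7502391, + strand: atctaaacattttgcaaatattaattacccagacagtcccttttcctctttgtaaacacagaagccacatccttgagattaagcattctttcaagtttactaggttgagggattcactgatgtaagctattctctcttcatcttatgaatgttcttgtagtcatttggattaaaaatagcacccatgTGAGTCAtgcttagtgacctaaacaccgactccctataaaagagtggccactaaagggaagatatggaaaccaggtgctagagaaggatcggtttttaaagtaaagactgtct

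The labels were checked against Tnfsf14. It had 0, 148 and 122 counts in differentiated LIGHT libraries 1, 2 and 3, against 113, 0 and 0 counts in the differentiated control libraries. Undifferentiated LIGHT libraries held 38, 53 and 58 counts and undifferentiated control libraries 0, 1 and 0. The library labelled differentiated LIGHT 1 and the library labelled differentiated control 1 thus went against their labels, so the tests were run with all 12 libraries and again with the other 10. Libraries held 16334079 to 19686675 expected counts, and 3 counts were worth 0.152 to 0.184 CPM by these totals. CPM are counts scaled to library size, and all others given use TMM factors. The 8 adipocyte markers summed to between 11960 and 17530 CPM in differentiated libraries, against 186 to 233 CPM in undifferentiated ones. Of 10 leukocyte markers 8 were listed, and they summed to 8.02 to 9.22 CPM in differentiated LIGHT, 8.21 to 8.58 CPM in differentiated control, 12.9 to 14.0 CPM in undifferentiated LIGHT and 19.3 to 20.2 CPM in undifferentiated control libraries.

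Of the 43 members, 28 were listed in every library, and 31 had enough counts to enter the edgeR test over all 12 libraries (11 MMPs, 13 ADAMTS, 3 ADAMTSL and 4 TIMPs). Beige differentiation moved members in both directions. In LIGHT cells 11 of the 31 rose and 8 fell (61.3%), where 58.6% of all 12993 genes tested were called (29.5% rose and 29.1% fell). In control cells 10 rose and 12 fell (71.0%), against 63.9% of all genes (32.2% rose and 31.7% fell). The members' median log2 fold change was 0.04 in either line, and that of all genes was 0 in both to 2 decimals. Without the 2 libraries, 32 members were tested, of which 12 rose and 9 fell in LIGHT cells (65.6%) and 9 rose and 16 fell in control cells (78.1%). Of all 13150 genes, 32.3% rose and 31.9% fell in LIGHT cells (64.1% in all), and 35.8% rose and 34.9% fell in control cells (70.7% in all). The shares called in either direction lie near the background, so the number of calls is not a result about the family. In control cells of the 10 libraries the members leaned to falls, 16 against 9, while all genes split about evenly. That split was not tested. The falls include Mmp10, Adamts16 and Adamtsl1, which passed the low-count filter only through undifferentiated libraries. Among the rises, Mmp17, Adamts15 and Timp4 would not have passed it without differentiated libraries. Directions were thus partly set by the filter on both sides.

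Between the lines, 4 members were higher and 5 lower in undifferentiated LIGHT cells than in undifferentiated control cells, 29.0% of the 31 against 26.5% of all genes (12.3% higher and 14.2% lower). After differentiation 0 members were called with all 12 libraries by edgeR and by DESeq2. Of all genes edgeR called 0% and DESeq2 called 1 gene, and 1 member had an unadjusted p under 0.05 in edgeR. In the fit of 10 libraries 13 members were higher and 4 lower in differentiated LIGHT cells (14.6% and 16.4% of all genes, 31% in all), and 10 were higher and 12 lower in undifferentiated LIGHT cells (22.3% and 22.1% of all genes, 44.4% in all). The undifferentiated libraries are the same in both fits, which differ there in the shared estimate of the spread. Scaling by library totals in place of TMM, in the 10 libraries, left the members at 14 higher and 4 lower in differentiated LIGHT cells, while all genes split into 2861 higher and 1477 lower, against 1922 higher and 2157 lower with TMM.

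**Figure D1:**
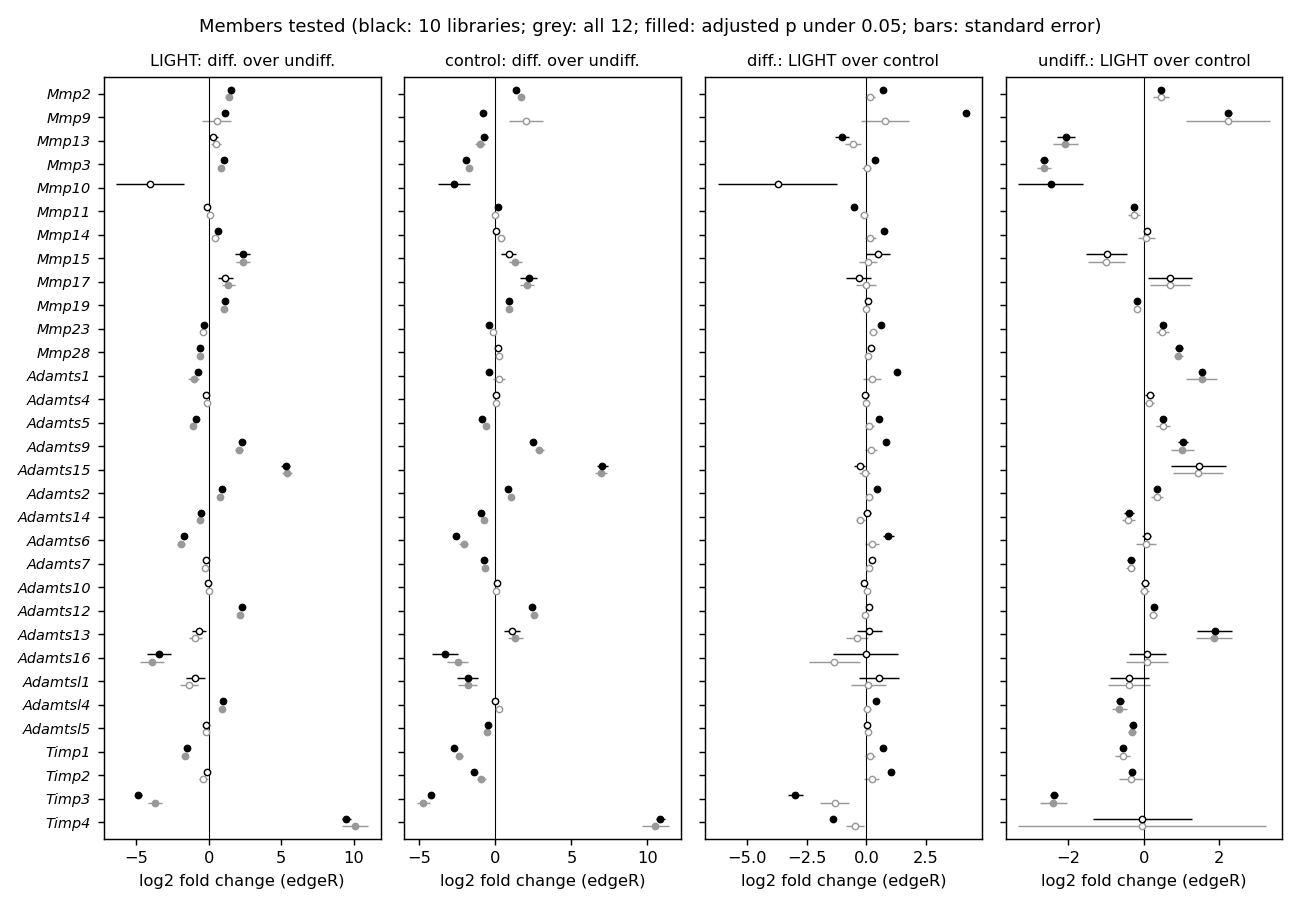
Log2 fold changes of the tested members, with differentiated over undifferentiated cells in the left panels and LIGHT over control cells in the right panels. Black points are from 10 libraries, grey points from all 12, filled points had an adjusted p under 0.05, and bars are standard errors; Timp4 lies farthest to the right for differentiation in both lines, and grey points of the differentiated line comparison are all open.

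The 4 TIMPs did not all move one way on differentiation. Timp1, Timp2 and Timp3 were lower in differentiated than in undifferentiated control cells and Timp4 was higher, so all 4 were called in that comparison with 12 and with 10 libraries. In LIGHT cells Timp1 and Timp3 fell and Timp4 rose in both fits, while Timp2 was not called in either. In bulk RNA, fewer cells of a type and less RNA per cell cannot be told apart.

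Timp4, an inhibitor found in heart and fat, was all but unread before differentiation. It had 48.0, 18.6 and 17.5 CPM in differentiated LIGHT libraries 1, 2 and 3, 21.3, 47.0 and 47.9 CPM in differentiated control libraries, and 1 count in all in the 3 undifferentiated libraries of each line. No differentiated library came near the undifferentiated ones. The ratio of differentiated to undifferentiated cells was 1499 in LIGHT cells (95% counting interval 268.7 to 59260) and 2053 in control cells (368 to 81120), or 988 (177 to 39080) and 2485 (445 to 98200) without the 2 libraries. Among differentiated libraries the values fell into a low set of 3, at 17.5 to 21.3 CPM, and a high set of 3, at 47.0 to 48.0 CPM, and the library labelled control 1 was in the low set and the library labelled LIGHT 1 in the high one. With 10 libraries Timp4 was lower in differentiated LIGHT than in differentiated control cells, with a log2 fold change of -1.40 ± 0.13 (± standard error, as for all log2 fold changes here) and an edgeR adjusted p of 1.99e-07. With 12 libraries the fold change was -0.47 ± 0.37 and the adjusted p 0.913. An exon of Syn2 overlaps Timp4 on the other strand over 90 bases in GENCODE M21. Syn2 had 365 to 453 counts in differentiated LIGHT, 454 to 554 in differentiated control, 0 to 3 in undifferentiated LIGHT and 4 to 7 in undifferentiated control libraries; the use of strand in counting is unknown, and reads of that stretch cannot be told apart.

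Timp3, the TIMP that binds to the matrix and also blocks ADAMTS and ADAM proteases, went the other way. Its level was 1.31, 0.211 and 0.305 CPM in differentiated LIGHT libraries, 0.311, 2.00 and 2.10 CPM in differentiated control libraries, 7.56, 7.33 and 8.10 CPM in undifferentiated LIGHT libraries and 42.1, 39.4 and 38.5 CPM in undifferentiated control libraries. Every differentiated library lay below every undifferentiated one, and the undifferentiated lines did not overlap. Undifferentiated LIGHT cells were lower than undifferentiated control cells, with a log2 fold change of -2.38 ± 0.35 (edgeR adjusted p 5.14e-04), and on differentiation it fell by 3.69 ± 0.50 in LIGHT cells and fell by 4.74 ± 0.42 in control cells on the log2 scale. In 10 libraries the falls were in the other order, 4.87 ± 0.24 in LIGHT and 4.26 ± 0.14 in control cells, and the interaction was called in neither fit. After differentiation LIGHT cells were lower in 10 libraries, at -2.98 ± 0.33 (adjusted p 1.21e-06), whereas with 12 libraries the value was -1.33 ± 0.61 and not called (adjusted p 0.913). Counts behind these differentiated values were small, 4 to 39 a library. The gene lies inside Syn3, whose exons overlap it on the other strand over up to 1733 bases, and Syn3 had 3 to 11 counts in any library.

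Timp1, a secreted inhibitor of most soluble MMPs, had 45.2, 67.0 and 68.2 CPM in differentiated LIGHT libraries, 78.0, 40.6 and 43.1 CPM in differentiated control libraries, 191, 194 and 181 CPM in undifferentiated LIGHT libraries and 280.3, 274 and 279 CPM in undifferentiated control libraries. The 2 stages did not overlap in either line. It fell by 1.65 ± 0.21 in LIGHT cells and fell by 2.37 ± 0.22 in control cells on the log2 scale (adjusted p 2.55e-05 and 9.82e-07). In 10 libraries it fell by 1.48 ± 0.06 and fell by 2.71 ± 0.06. There the fall was smaller in LIGHT than in control cells by 1.23 ± 0.08, an interaction with an adjusted p of 2.02e-09, and with 12 libraries the same term was 0.72 ± 0.29 (adjusted p 0.15).

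Timp2, which blocks MMP-2 but at low level also takes part in its activation by MMP-14, had 247, 532 and 496 CPM in differentiated LIGHT libraries, 587, 245 and 250.1 CPM in differentiated control libraries, 524, 553 and 565 CPM in undifferentiated LIGHT libraries and 709, 649 and 694 CPM in undifferentiated control libraries. The library labelled differentiated LIGHT 1 lay with differentiated control 2 and 3, and the library labelled differentiated control 1 with differentiated LIGHT 2 and 3. In 10 libraries Timp2 fell by 1.44 ± 0.06 in control cells (adjusted p 3.24e-14) and its change in LIGHT cells was -0.09 ± 0.06 (adjusted p 0.196), with an interaction of 1.36 ± 0.08 (adjusted p 1.06e-09). In 12 libraries the fall in control cells was 0.92 ± 0.32 (adjusted p 0.0229), and it lost its call in 4 of the alternatives tried, all of which left out 1 control library.

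**Figure D2:**
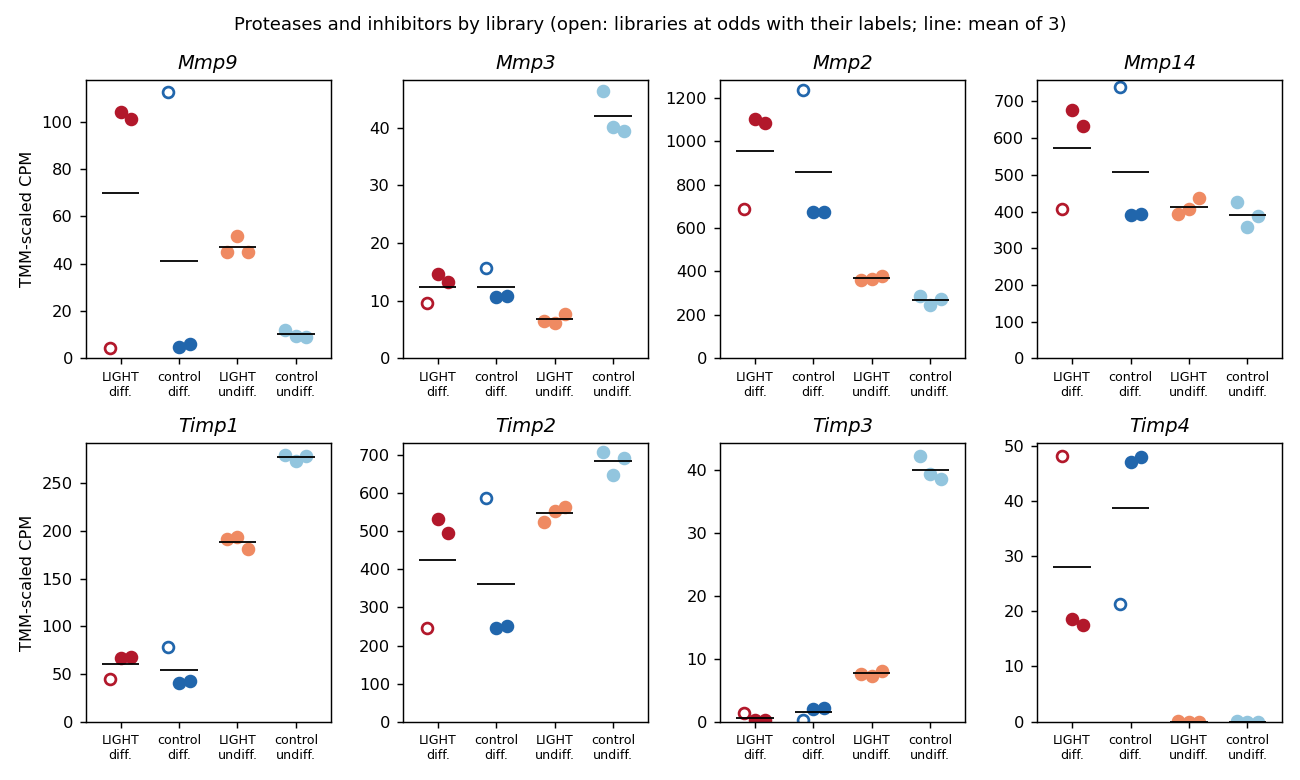
TMM-scaled CPM of 4 proteases and the 4 TIMPs in every library, with differentiated LIGHT, differentiated control, undifferentiated LIGHT and undifferentiated control cells from left to right. Open circles are the libraries labelled LIGHT 1 and control 1 after differentiation, and lines are means of 3; for Mmp9 the open circles are at 4.49 CPM in the LIGHT group and 112 CPM in the control group, each beside the filled points of the other line.

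The gelatinases cut denatured collagen and basement membrane collagen. Mmp9, the gelatinase of inflamed tissue, had 4.49, 104 and 101 CPM in differentiated LIGHT libraries 1, 2 and 3, 112, 4.78 and 6.26 CPM in differentiated control libraries, 44.9, 51.9 and 44.9 CPM in undifferentiated LIGHT libraries and 11.9, 9.55 and 8.91 CPM in undifferentiated control libraries. The undifferentiated lines did not overlap, and the differentiated ones did so only through the 2 libraries at odds with their labels. In 10 libraries Mmp9 was higher in LIGHT than in control cells by a log2 fold change of 4.20 ± 0.13 after differentiation (adjusted p 6.81e-14) and of 2.23 ± 0.10 before it (adjusted p 1.86e-12). It rose by 1.12 ± 0.09 on differentiation in LIGHT cells and fell by 0.84 ± 0.15 in control cells, and the interaction was 1.96 ± 0.17 (adjusted p 9.07e-08). With all 12 libraries none of these was called, and the change in control cells turned to 2.01 ± 1.11 (adjusted p 0.132). Leukocytes also make Mmp9, and their summed markers, given earlier, were lower in undifferentiated LIGHT than in undifferentiated control libraries. The sums lay between 8.02 and 9.22 CPM in all 6 differentiated libraries. Single markers did not all move one way. In 10 libraries Cd14, Cd68 and Lyz2 were called lower in undifferentiated LIGHT cells. Ptprc, not tested in 12 libraries, was called higher there in 10, as Mmp9 was. The part of leukocytes in the Mmp9 values was not tested.

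Mmp2, the gelatinase that MMP-14 activates, was the MMP with the highest length-scaled level after differentiation. Its count was 686, 1100.0 and 1083 CPM in differentiated LIGHT libraries, 1233, 672 and 672 CPM in differentiated control libraries, 359, 365 and 381 CPM in undifferentiated LIGHT libraries and 286, 247 and 272 CPM in undifferentiated control libraries. All differentiated libraries lay above all undifferentiated ones. The rise was 1.38 ± 0.23 in LIGHT cells and 1.68 ± 0.23 in control cells on the log2 scale (adjusted p 1.90e-04 and 3.25e-05). In 10 libraries the order of the lines turned, with rises of 1.57 ± 0.06 in LIGHT and 1.35 ± 0.06 in control cells and an interaction of 0.23 ± 0.08 (adjusted p 0.0482). LIGHT cells exceeded control cells by 0.69 ± 0.06 after and by 0.47 ± 0.05 before differentiation in 10 libraries (adjusted p 1.65e-07 and 1.06e-06), and neither was called in 12.

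Among the membrane-type MMPs, Mmp14, a collagenase of the cell surface, had 406, 676 and 633 CPM in differentiated LIGHT libraries, 739.9, 390.4 and 392 CPM in differentiated control libraries, 394, 406 and 438 CPM in undifferentiated LIGHT libraries and 427, 359 and 389 CPM in undifferentiated control libraries. It was not called in any comparison of the 12 libraries. In 10 libraries it rose in LIGHT cells by 0.67 ± 0.07 (adjusted p 2.84e-08), its change in control cells was 0.02 ± 0.07 (adjusted p 0.777), and the interaction was 0.65 ± 0.09 (adjusted p 3.77e-05). Mmp15 and Mmp17, also bound to the membrane, were scarce, with at most 1.99 CPM in any library. Mmp15 had 1.43, 1.32 and 1.34 CPM in differentiated LIGHT, 1.99, 0.848 and 1.03 CPM in differentiated control, 0.413, 0.209 and 0.161 CPM in undifferentiated LIGHT and 0.519, 0.562 and 0.466 CPM in undifferentiated control libraries. It rose on differentiation in LIGHT cells in both fits, by 2.37 ± 0.45 in 12 libraries (adjusted p 6.31e-04) and 2.34 ± 0.52 in 10, and its rise of 1.30 ± 0.42 in control cells (adjusted p 0.0154) was not called in 10 libraries (0.88 ± 0.49, adjusted p 0.119). Mmp17 had 1.68, 0.950 and 1.28 CPM in differentiated LIGHT, 1.18, 1.03 and 1.73 CPM in differentiated control, 0.827, 0.366 and 0.322 CPM in undifferentiated LIGHT and 0.404, 0.337 and 0.175 CPM in undifferentiated control libraries. Its rise in control cells was called in both fits, at 2.08 ± 0.48 in 12 libraries (adjusted p 0.00209) and 2.18 ± 0.55 in 10, and its rise in LIGHT cells in 12 libraries alone (1.37 ± 0.45, adjusted p 0.0191, against an adjusted p of 0.0641 in 10). Undifferentiated libraries alone would not have carried Mmp15 or Mmp17 past the low-count filter. The direction of their rises was thus partly set by the filter.

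Mmp3, or stromelysin 1, which cuts proteoglycans and fibronectin and activates other MMPs, changed in opposite directions in the 2 lines. It had 9.53, 14.6 and 13.3 CPM in differentiated LIGHT libraries, 15.7, 10.7 and 10.8 CPM in differentiated control libraries, 6.44, 6.18 and 7.67 CPM in undifferentiated LIGHT libraries and 46.3, 40.1 and 39.5 CPM in undifferentiated control libraries. Undifferentiated control cells stood apart at the top and undifferentiated LIGHT cells at the bottom, and all 6 differentiated libraries lay between them. Before differentiation LIGHT cells were lower, the log2 fold change being -2.63 ± 0.18 (adjusted p 3.81e-06). Differentiation raised it by 0.88 ± 0.19 in LIGHT cells (adjusted p 0.00125) and in control cells it fell by 1.76 ± 0.17 (adjusted p 1.96e-06), and the interaction of 2.65 ± 0.25 was called with 12 libraries (adjusted p 2.43e-04) as with 10 (2.99 ± 0.17, adjusted p 1.06e-09). The changes in 10 libraries were 1.05 ± 0.13 in LIGHT and -1.94 ± 0.12 in control cells. After differentiation the lines differed by 0.37 ± 0.13 in 10 libraries (adjusted p 0.0403) and by 0.02 ± 0.18 in 12 (adjusted p 0.991).

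Mmp13, the main interstitial collagenase of mice, lies in the same block on chromosome 9 and was likewise highest in undifferentiated control cells. It had 2.87, 2.38 and 1.58 CPM in differentiated LIGHT libraries, 1.93, 5.09 and 3.02 CPM in differentiated control libraries, 1.24, 1.78 and 1.77 CPM in undifferentiated LIGHT libraries and 6.23, 7.13 and 6.93 CPM in undifferentiated control libraries. Undifferentiated control cells overlapped with no other group. Undifferentiated LIGHT cells were lower, the log2 fold change being -2.07 ± 0.33 (adjusted p 8.06e-04), and on differentiation it fell by 1.01 ± 0.31 in control cells (adjusted p 0.012). Its change in LIGHT cells was 0.50 ± 0.34 and not called (adjusted p 0.224). In 10 libraries the change in control cells was -0.72 ± 0.24 (adjusted p 0.0115) and that in LIGHT cells 0.32 ± 0.30 (adjusted p 0.36), and LIGHT cells were lower than control cells after differentiation, at -1.02 ± 0.29 (adjusted p 0.0123).

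Mmp10, stromelysin 2 and a further gene of the block, had 0 counts in the differentiated LIGHT libraries and 17 counts at most, and it entered the test of 10 libraries but not that of 12. There it was lower in undifferentiated LIGHT than in undifferentiated control cells (6 against 33 counts over 3 libraries each, log2 fold change -2.45 ± 0.86, adjusted p 0.0272) and lower in differentiated than in undifferentiated control cells. For that second comparison the ratio was 0.136, with a 95% counting interval of 0.0266 to 0.433, from 3 counts over the differentiated control libraries 2 and 3. Mmp10 passed the low-count filter of that fit only through the undifferentiated control libraries, so the direction of both differences was partly set by the filter. Mmp12, Mmp1a and Mmp1b, the other 3 genes of the block, had at most 8 counts in a library and were not tested. The last 2 are related copies, and how reads common to both were assigned is not known.

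Mmp11, stromelysin 3, had 68.2, 45.3 and 44.9 CPM in differentiated LIGHT libraries, 43.2, 63.3 and 64.9 CPM in differentiated control libraries, 49.2, 49.6 and 46.9 CPM in undifferentiated LIGHT libraries and 58.9, 54.5 and 60.2 CPM in undifferentiated control libraries. It was not called in 12 libraries, and in 10 it was lower in LIGHT than in control cells after differentiation (-0.51 ± 0.07, adjusted p 2.45e-05) and before it (-0.24 ± 0.06, adjusted p 0.00258). Its rise on differentiation in control cells was also called in 10 libraries. Again the 2 libraries at odds with their labels lay with the other line.

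Of the remaining MMPs, Mmp19, an MMP of healthy connective tissue, rose on differentiation in both lines. It had 112, 124 and 128 CPM in differentiated LIGHT libraries, 129.9, 120.1 and 117 CPM in differentiated control libraries, 54.5, 60.3 and 58.1 CPM in undifferentiated LIGHT libraries and 70.6, 61.4 and 63.0 CPM in undifferentiated control libraries. The rise was 1.08 ± 0.08 in LIGHT and 0.91 ± 0.08 in control cells (adjusted p 1.38e-07 and 4.49e-07), or 1.14 ± 0.07 and 0.89 ± 0.07 in 10 libraries, and neither fit called a difference between the differentiated lines. In 10 libraries Mmp19 was called lower in undifferentiated LIGHT than in undifferentiated control cells. Its exons overlap Tmem198b on the other strand over up to 789 bases, and that gene had 363 to 465 counts in differentiated and 643 to 803 counts in undifferentiated libraries; reads of that stretch cannot be told apart.

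Mmp28, or epilysin, an MMP of skin and other epithelia, had 21.2, 24.4 and 22.9 CPM in differentiated LIGHT libraries, 24.5, 17.9 and 22.8 CPM in differentiated control libraries, 32.6, 33.4 and 39.4 CPM in undifferentiated LIGHT libraries and 20.4, 17.1 and 18.4 CPM in undifferentiated control libraries. Undifferentiated LIGHT cells stood above all other libraries. They exceeded undifferentiated control cells by 0.92 ± 0.12 (adjusted p 2.66e-04), and the interaction of -0.84 ± 0.17 was called with 12 libraries (adjusted p 0.0104) and with 10 (-0.72 ± 0.16, adjusted p 0.00201). The fall of Mmp28 on differentiation in LIGHT cells was called in both fits. The overlapping antisense gene 1700020L24Rik had 66 to 85 counts in undifferentiated LIGHT libraries and 34 to 59 in the rest, so reads of the shared 466 bases cannot be told apart. Mmp23 had 28.5, 30.2 and 33.5 CPM in differentiated LIGHT, 35.4, 22.8 and 18.5 CPM in differentiated control, 38.3, 40.8 and 39.5 CPM in undifferentiated LIGHT and 28.0, 28.0 and 28.3 CPM in undifferentiated control libraries. It was called in 10 libraries alone, higher in LIGHT cells at both stages and lower on differentiation in both lines. The 7 MMPs that could not be tested with 12 libraries, Mmp10, Mmp12, Mmp16, Mmp1a, Mmp1b, Mmp24 and Mmp27, had at most 17 counts in any library.

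The ADAMTS proteases of the hyalectan group cut versican and aggrecan, the large proteoglycans that bind hyaluronan. Adamts1 led them in level. It had 223, 563 and 545 CPM in differentiated LIGHT libraries, 676, 230.0 and 227 CPM in differentiated control libraries, 874, 885 and 978 CPM in undifferentiated LIGHT libraries and 349.5, 317 and 282 CPM in undifferentiated control libraries. Undifferentiated LIGHT cells lay above every other library, and the doubted differentiated libraries again lay with the other line. LIGHT cells exceeded control cells by 1.53 ± 0.40 before differentiation in 12 libraries (adjusted p 0.0152, not called when undifferentiated control 2 or 3 was left out) and by 1.27 ± 0.08 after it in 10 (adjusted p 1.26e-09). On differentiation it fell by 1.04 ± 0.40 in LIGHT cells in 12 libraries (adjusted p 0.0393, a call lost in 9 of the alternatives) and fell by 0.71 ± 0.07 in 10 (adjusted p 5.59e-08). In control cells the change was 0.25 ± 0.40 in 12 libraries and not called, and -0.45 ± 0.07 in 10, where it was (adjusted p 2.57e-05).

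Adamts5, its neighbour on chromosome 16 and the main aggrecanase of mouse cartilage, had 53.5, 77.5 and 84.2 CPM in differentiated LIGHT libraries, 86.4, 57.3 and 55.5 CPM in differentiated control libraries, 141, 142 and 162 CPM in undifferentiated LIGHT libraries and 119, 103 and 89.8 CPM in undifferentiated control libraries. Each differentiated group lay below its undifferentiated group. It fell by 1.05 ± 0.19 in LIGHT and fell by 0.65 ± 0.19 in control cells (adjusted p 3.70e-04 and 0.00848). The falls were 0.87 ± 0.09 and 0.86 ± 0.09 in 10 libraries, where it was higher in LIGHT cells at both stages. Adamts4 had 13.1 to 19.3 CPM over all libraries and was not called in any comparison.

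Adamts9 and Adamts15, 2 more proteases of this group, rose on differentiation. Adamts9 had 25.4, 41.6 and 40.6 CPM in differentiated LIGHT libraries, 47.6, 23.1 and 23.3 CPM in differentiated control libraries, 8.38, 8.38 and 8.91 CPM in undifferentiated LIGHT libraries and 4.33, 4.72 and 3.55 CPM in undifferentiated control libraries. Its rise was 2.07 ± 0.27 in LIGHT and 2.89 ± 0.30 in control cells (adjusted p 3.35e-05 and 2.76e-06), or 2.27 ± 0.11 and 2.48 ± 0.12 in 10 libraries. Undifferentiated LIGHT cells exceeded control cells by 1.02 ± 0.31 (adjusted p 0.0273), a call lost in 8 of the alternatives. Adamts15 had 11.2, 9.03 and 8.77 CPM in differentiated LIGHT libraries, 9.01, 9.32 and 12.1 CPM in differentiated control libraries, 0.118, 0.209 and 0.322 CPM in undifferentiated LIGHT libraries and 0.115, 0.112 and 0 CPM in undifferentiated control libraries. The stages were far apart and the differentiated lines overlapped. With a log2 fold change of 5.42 ± 0.34 in LIGHT and 6.93 ± 0.40 in control cells (adjusted p 4.27e-08 and 1.52e-08), it had the largest fitted rise of any protease tested in 12 libraries, and the values in 10 were 5.30 ± 0.32 and 7.03 ± 0.38. Undifferentiated values rested on 12 counts over the 3 LIGHT and 4 counts over the 3 control libraries. The sizes of the rises are thus loosely known, and the interaction was called in neither fit. Adamts8 and Adamts20, the first of which lies beside Adamts15 on chromosome 9, had at most 5 counts in a library.

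Adamts2 and Adamts14 trim the amino-terminal propeptide off fibrillar procollagens, and they moved apart. Adamts2 had 81.8, 119 and 119 CPM in differentiated LIGHT libraries, 121, 83.9 and 87.9 CPM in differentiated control libraries, 60.0, 62.9 and 63.9 CPM in undifferentiated LIGHT libraries and 51.7, 46.2 and 49.2 CPM in undifferentiated control libraries, and it rose by 0.78 ± 0.15 in LIGHT and 0.99 ± 0.15 in control cells. Adamts14 had 6.36, 7.97 and 6.82 CPM in differentiated LIGHT libraries, 10.8, 7.99 and 6.48 CPM in differentiated control libraries, 9.98, 9.42 and 12.6 CPM in undifferentiated LIGHT libraries and 14.8, 13.2 and 14.4 CPM in undifferentiated control libraries, and it fell by 0.60 ± 0.18 in LIGHT and fell by 0.75 ± 0.18 in control cells. In both lines the stages did not overlap for either gene, and all 4 changes were called (adjusted p 7.49e-04 and 9.89e-05 for Adamts2, 0.0139 and 0.00294 for Adamts14). In 10 libraries Adamts2 rose by 0.94 ± 0.06 and 0.83 ± 0.06, and Adamts14 fell by 0.52 ± 0.15 and fell by 0.94 ± 0.15, in LIGHT and control cells. The Adamts14 call in LIGHT cells was lost without undifferentiated LIGHT 3.

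Adamts12, which can cut cartilage oligomeric matrix protein, rose in both lines to levels that set the stages clearly apart. It had 93.6, 111 and 110.4 CPM in differentiated LIGHT libraries, 129, 101 and 102 CPM in differentiated control libraries, 23.6, 22.2 and 23.1 CPM in undifferentiated LIGHT libraries and 21.1, 18.6 and 18.3 CPM in undifferentiated control libraries. Its log2 fold changes were 2.19 ± 0.11 in LIGHT and 2.51 ± 0.11 in control cells (adjusted p 4.64e-09 and 1.26e-09), or 2.27 ± 0.07 and 2.41 ± 0.07 in 10 libraries. Adamts6 went the other way. It had 2.99, 4.64 and 4.26 CPM in differentiated LIGHT libraries, 5.41, 2.36 and 2.32 CPM in differentiated control libraries, 13.3, 13.8 and 17.5 CPM in undifferentiated LIGHT libraries and 15.4, 14.9 and 12.2 CPM in undifferentiated control libraries, and it fell by 1.90 ± 0.28 in LIGHT (adjusted p 7.83e-05) and fell by 2.08 ± 0.29 in control cells (adjusted p 3.48e-05). Its falls were 1.73 ± 0.17 and 2.57 ± 0.19 in 10 libraries.

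Adamts7, which also cuts cartilage oligomeric matrix protein, had 10.8, 12.3 and 11.2 CPM in differentiated LIGHT libraries, 12.2, 9.51 and 10.3 CPM in differentiated control libraries, 13.3, 12.4 and 15.2 CPM in undifferentiated LIGHT libraries and 18.4, 16.9 and 16.6 CPM in undifferentiated control libraries. It fell by 0.70 ± 0.12 in control cells (adjusted p 2.62e-04), and its change in LIGHT cells was -0.25 ± 0.12 and not called (adjusted p 0.0914); in 10 libraries the control fall was 0.78 ± 0.13 and the change in LIGHT cells -0.21 ± 0.12. Adamts13, the protease of von Willebrand factor, had 0.498, 0.950 and 0.975 CPM in differentiated LIGHT, 1.43, 0.606 and 1.13 CPM in differentiated control, 1.06, 1.36 and 2.20 CPM in undifferentiated LIGHT and 0.231, 0.618 and 0.408 CPM in undifferentiated control libraries, and was higher in undifferentiated LIGHT than in undifferentiated control cells (1.86 ± 0.48, adjusted p 0.014), which was not called when undifferentiated control 1 or undifferentiated LIGHT 3 was left out. Its rise in control cells of 1.32 ± 0.50 (adjusted p 0.0346) was lost in 10 of the alternatives, among them the fit of 10 libraries (1.07 ± 0.54, adjusted p 0.0858). Adamts16 fell in both lines from a low level: it had 3 counts in all in the differentiated LIGHT libraries, against 53 in the undifferentiated ones (ratio 0.0602, 95% counting interval 0.0120 to 0.186), and 0.0605 to 0.311 CPM in differentiated control libraries, against 0.730 to 1.22 CPM in undifferentiated ones (-2.49 ± 0.72, adjusted p 0.00861). In 10 libraries the ratio was 0.0875 in LIGHT cells (0.0175 to 0.270) and 0.0933 in control cells (0.0186 to 0.289), from 3 counts after differentiation in each line. Adamts16 passed the low-count filter only through undifferentiated libraries, so the direction of its falls was partly set by the filter. Adamts10 had 22.4 to 33.2 CPM over all libraries and was not called in any comparison, and Adamts17 had at most 12 counts.

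Of the ADAMTSL genes, Adamtsl4, whose loss displaces the eye lens, had 19.4, 24.2 and 26.1 CPM in differentiated LIGHT libraries, 31.1, 18.6 and 18.7 CPM in differentiated control libraries, 11.0, 13.2 and 13.4 CPM in undifferentiated LIGHT libraries and 18.9, 19.2 and 20.5 CPM in undifferentiated control libraries. It was lower in undifferentiated LIGHT than in undifferentiated control cells (-0.64 ± 0.19, adjusted p 0.025) and rose on differentiation in LIGHT cells (0.89 ± 0.19, adjusted p 0.00126, or 1.01 ± 0.11 in 10 libraries). In control cells its change was 0.22 ± 0.18 in 12 libraries and -0.04 ± 0.11 in 10 and not called, and the interaction was called in 10 libraries (1.05 ± 0.15, adjusted p 3.46e-05). Adamtsl5 had 24.2, 25.2 and 21.8 CPM in differentiated LIGHT, 21.3, 20.8 and 25.7 CPM in differentiated control, 25.6, 29.8 and 24.6 CPM in undifferentiated LIGHT and 30.8, 33.2 and 34.9 CPM in undifferentiated control libraries, and fell by 0.54 ± 0.11 in control cells (adjusted p 6.25e-04, or a fall of 0.48 ± 0.11 in 10 libraries). It was lower in undifferentiated LIGHT than in undifferentiated control cells in 12 libraries (-0.30 ± 0.10, adjusted p 0.0492), a call lost in 13 of the alternatives. Adamtsl1 stayed under 1 CPM in every library and fell in control cells (-1.82 ± 0.63, adjusted p 0.0236, and -1.84 ± 0.70 in 10 libraries), not called when undifferentiated control 2 or 3 or differentiated control 2 was left out, nor by limma on log2(FPKM + 1) (adjusted p 0.0538 to 0.107). It passed the low-count filter only through undifferentiated libraries, so the direction of this fall was partly set by the filter. Adamtsl2 and Adamtsl3 had at most 11 counts.

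Proteases were then set against inhibitors by summing the deposited FPKM, which divide by gene length, within each library. Summed MMPs were higher after differentiation, at 602 ± 151 FPKM in differentiated LIGHT and 529 ± 197 in differentiated control libraries, against 352 ± 15.7 in undifferentiated LIGHT and 319.8 ± 22.6 in undifferentiated control libraries (SD, n = 3 each). Summed TIMPs were lower, at 222 ± 52.6 and 199 ± 73.6 FPKM in differentiated LIGHT and control libraries, against 421 ± 9.47 and 604 ± 14.8 in undifferentiated LIGHT and control libraries. Summed ADAMTS proteases stood at 150.2 ± 49.6 FPKM in differentiated and 249.7 ± 19.0 in undifferentiated LIGHT libraries, and at 132 ± 65.2 in differentiated and 113 ± 11.4 in undifferentiated control libraries. Without the doubted libraries the differentiated LIGHT and control means were 689 and 415 FPKM for MMPs, 179 and 94.5 for ADAMTS, and 253 and 157 for TIMPs (n = 2 each). The order of the stages for ADAMTS in control cells thus turned without the library labelled control 1, and in both lines the differentiated mean was then the lower.

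The ratio of the summed proteases (MMPs and ADAMTS) to the summed TIMPs was 3.36 ± 0.129 in differentiated LIGHT libraries and 3.30 ± 0.0915 in differentiated control libraries, against 1.43 ± 0.0828 in undifferentiated LIGHT and 0.716 ± 0.0355 in undifferentiated control libraries (SD, n = 3 each). Over the 6 differentiated libraries it ran from 3.20 to 3.47, although the summed proteases beneath it ran from 503 to 963 FPKM. Undifferentiated libraries of the 2 lines did not overlap. Leaving out the doubted libraries gave 3.44 and 3.25 for differentiated LIGHT and control cells (n = 2 each). Summed CPM, which are not scaled to length, gave 5.13 and 5.545 in the same libraries, so the order of the differentiated lines depended on the unit. The sums are led by few genes: Mmp2 and Mmp14 made up 63.9 to 81.2% of the summed MMP FPKM, and Adamts1 made up 47.7 to 79.3% of the summed ADAMTS FPKM. Of the TIMPs, TIMP-3 alone was named above as blocking ADAMTS proteases, and Timp3 held at most 1.57% of the summed TIMP FPKM. MMPs alone over TIMPs gave 2.70 and 2.65 in differentiated LIGHT and control libraries, against 0.837 and 0.529 in undifferentiated ones (means, n = 3 each). The gap between the undifferentiated lines was thus smaller without ADAMTS. Mean Adamts1 was 198 FPKM in undifferentiated LIGHT and 69.3 FPKM in undifferentiated control libraries. Both ratios are of transcripts and carry no test, since the members were chosen with results known.

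**Figure D3:**
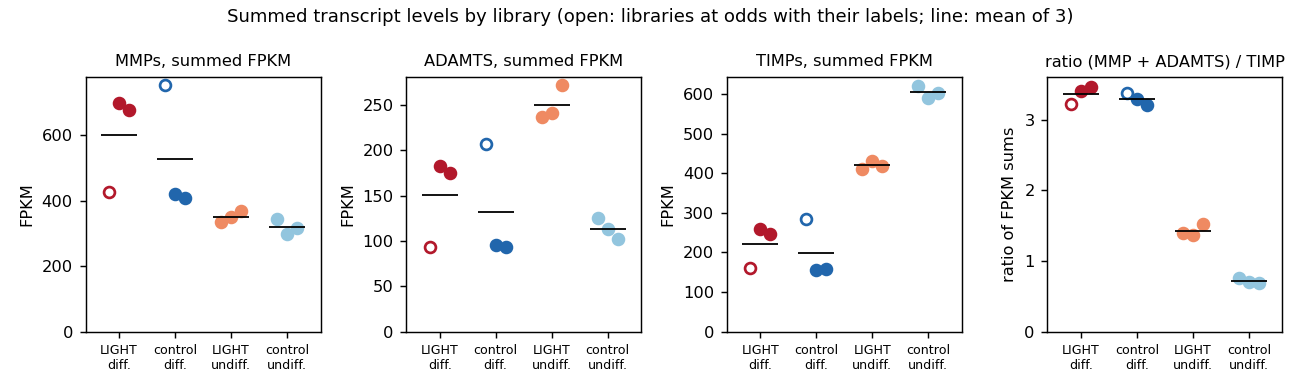
Summed FPKM of MMPs, ADAMTS proteases and TIMPs, and the ratio of proteases to TIMPs, in every library, with differentiated LIGHT, differentiated control, undifferentiated LIGHT and undifferentiated control cells from left to right. Open circles are the libraries at odds with their labels and lines are means of 3; the sums of the differentiated libraries spread widely, while their ratios lie close together and above those of both undifferentiated groups.

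The make-up of the TIMP transcripts also differed between groups. Before differentiation Timp1 held 59.4 to 62.4% of the summed TIMP FPKM in LIGHT and 64.1 to 65.4% in control libraries, Timp2 held 37.2 to 40.2% and 33.0 to 34.3%, and Timp4 held at most 0.0121%. After differentiation Timp4 held 22.4, 5.72 and 5.59% in LIGHT libraries 1, 2 and 3 and 5.80, 22.9 and 22.6% in control libraries 1, 2 and 3, and Timp2 held 41.4, 59.0 and 57.5% in the LIGHT and 58.3, 43.0 and 42.9% in the control libraries. In both shares the library labelled LIGHT 1 lay with control 2 and 3, and the library labelled control 1 with LIGHT 2 and 3.

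**Figure D4:**
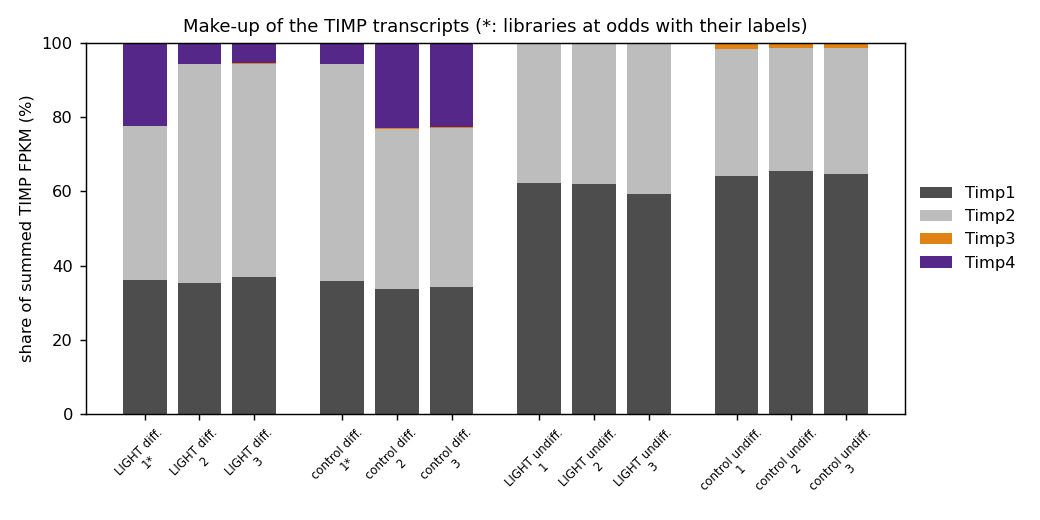
Share of each TIMP in the summed TIMP FPKM of every library, with differentiated LIGHT, differentiated control, undifferentiated LIGHT and undifferentiated control cells from left to right and asterisks on the libraries at odds with their labels. Timp4 is visible in the 6 differentiated libraries, and its share in the library labelled control 1, 5.80%, is near that of LIGHT 2 and 3.

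How the difference between the lines compared across the stages was read from the 10 libraries. Of the members higher in LIGHT cells before differentiation, Mmp2, Mmp9, Mmp23, Adamts1, Adamts2, Adamts5 and Adamts9 were also called higher after it, while Timp3, Mmp11 and Mmp13 were lower at both stages. Mmp3, Adamtsl4, Timp1 and Timp2 were lower in LIGHT cells before and higher after differentiation. The interaction, which tests whether the line difference depended on the stage, was called for 12 of the 32 members in 10 libraries (37.5%, against 31% of all genes, of which 14.9% were positive and 16.1% negative) and for 2 of 31 in 12 libraries (6.45%, against 9.34% of all genes, of which 5.08% were positive and 4.26% negative). Adipocyte markers moved with the line after differentiation as well: 6 of 8 were lower in LIGHT cells in the 10 libraries, where the 8 summed to 11960 and 12230 CPM in LIGHT libraries 2 and 3, against 16680 and 17530 CPM in control libraries 2 and 3. The part of that difference in the members' values was not tested.

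**Figure D5:**
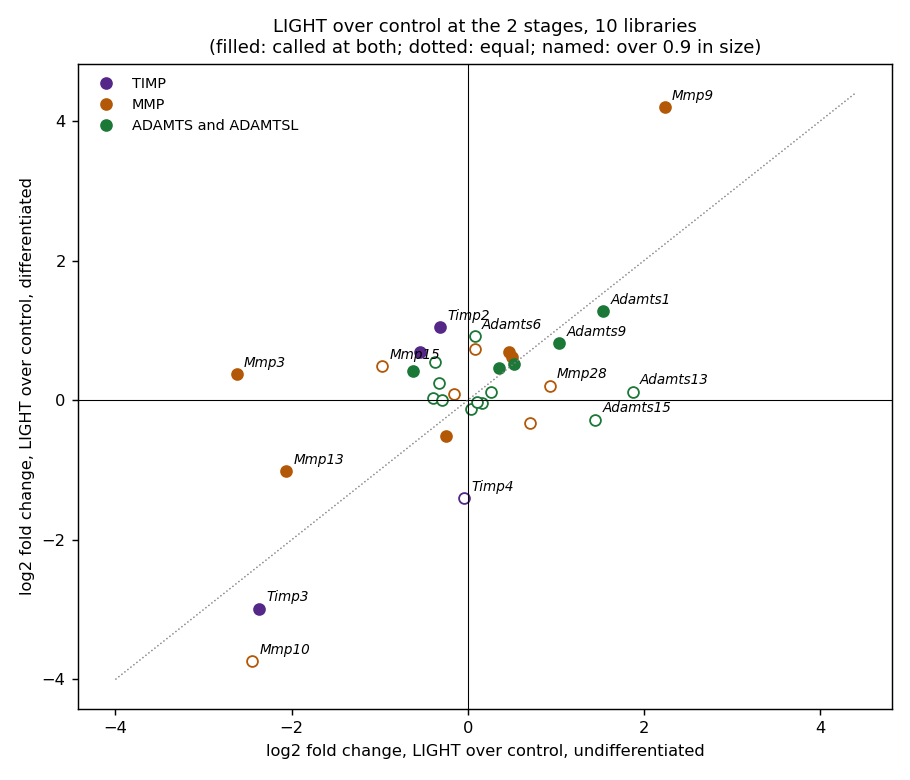
Log2 fold change of LIGHT over control cells for each member tested in 10 libraries, with undifferentiated cells on the horizontal and differentiated cells on the vertical axis. Filled points were called at both stages and the dotted line marks equal change; Mmp9 lies at 2.23 and 4.20, Timp3 at -2.37 and -2.98, and Mmp3 at -2.62 and 0.37.

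Genes that act with the family were counted from lists of activators and receptors, other protease inhibitors, ADAM and astacin proteases, and matrix substrates. On differentiation in 12 libraries, 29.5% of all genes tested rose and 29.1% fell in LIGHT cells, and 32.2% rose and 31.7% fell in control cells. In 10 libraries 32.3% rose and 31.9% fell in LIGHT cells, and 35.8% rose and 34.9% fell in control cells. The counts that follow are to be read against the shares of their own fit. Of 9 activators and receptors tested, 1 rose and 5 fell in LIGHT cells and 1 rose and 7 fell in control cells, with a median log2 fold change of -0.52 and -0.55 (2 rose and 5 fell, and 1 rose and 8 fell, in 10 libraries). The one that rose in both lines was Bsg, an inducer of MMPs on the cell surface (log2 fold change 1.27 in LIGHT and 1.25 in control cells). In 10 libraries its rise was 0.84 in LIGHT and 1.54 in control cells, with an interaction of -0.69 (adjusted p 1.70e-06), and it was lower in differentiated LIGHT than in differentiated control cells (-0.97, adjusted p 6.83e-10). Bsg had 2200.0, 1066 and 1088 CPM in differentiated LIGHT libraries 1, 2 and 3, against 1066, 2050.0 and 2146 CPM in differentiated control libraries. Plau, the urokinase that activates plasminogen, fell by 2.92 in LIGHT and fell by 3.16 in control cells (-2.67 and -3.07 in 10 libraries), and Cd44, the hyaluronan receptor that can hold MMP-9 at the cell surface, fell by 0.82 and fell by 1.63 (-0.75 and -1.74). Plaur, the urokinase receptor, fell by 1.98 in control cells (-2.10 in 10 libraries), and was lower in undifferentiated LIGHT than in undifferentiated control cells (log2 fold change -1.57).

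Among 11 other inhibitors tested, 4 rose and 5 fell in LIGHT cells and 3 rose and 4 fell in control cells (4 and 6, and 6 and 5, in 10 libraries). The serine protease inhibitor Serpina3n rose by 5.45 in LIGHT and 5.80 in control cells (5.51 and 5.68 in 10 libraries). Of 12 ADAM and astacin proteases, 4 rose and 5 fell in LIGHT cells and 5 rose and 6 fell in control cells (4 and 4, and 5 and 7, in 10 libraries). Adam12, a protease known from muscle and fat development, rose by 3.59 and 2.29, with an interaction of 1.30 (adjusted p 3.09e-04), and in 10 libraries by 3.62 and 2.18 with an interaction of 1.44. Of 16 matrix substrates, 6 rose and 5 fell in LIGHT cells and 6 rose and 4 fell in control cells (7 and 6, and 6 and 5, in 10 libraries). Between the undifferentiated lines 4 were higher and 7 lower in LIGHT cells, where 12.3% of all genes were higher and 14.2% lower. Col4a1, a chain of basement membrane collagen, rose by 1.84 and 1.54 (1.82 and 1.49 in 10 libraries), and Col3a1, a fibrillar collagen, was higher in undifferentiated LIGHT than in undifferentiated control cells by 1.09 (adjusted p 1.50e-05). After differentiation 0 genes of the 4 lists were called between the lines in 12 libraries. In 10 libraries the counts higher and lower in LIGHT cells were 2 and 1 of 9 activators, 2 and 1 of 11 inhibitors, 3 and 1 of 12 ADAM and astacin proteases, and 5 and 3 of 16 substrates, against 14.6% and 16.4% of all genes.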

How the data were processed

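RNA of 12 libraries (4 groups of 3, named by the labels) was sequenced on an Illumina HiSeq, per the series' design text. The authors deposited 1 table per library with expected counts (estimated, not always whole) and FPKM per gene, per the file headers. FPKM scales a count by library total and gene length. A gene missing from a table was taken as 0, since each table lists only values above 0. Per the submitters' processing notes, mm8 was the build. Not given in the sources used here are the aligner, the counting program and the use of strand.

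Expected counts were rounded and tested in edgeR 4.0.16 (R 4.3.3): TMM, filterByExpr (minimum count 10), quasi-likelihood test, 1 coefficient per group, Benjamini-Hochberg adjustment over all genes tested, and a call at an adjusted p under 0.05. For standard errors, the size of a log2 fold change was divided by the root of its F. CPM use TMM factors of the 12 libraries. The fit was checked on simulated data. Promoters come from RefSeq (GRCm38.p6) and exon overlaps from GENCODE M21, a build other than mm8, so deposited values were tied to them by gene symbol only. Alternatives were RLE scaling, library totals, DESeq2 1.42.0, limma 3.58.1 on log2(FPKM + 0.1) and log2(FPKM + 1), other filters, fewer libraries and a replicate block. Ratios of 1 to 3 counts carry exact 95% counting intervals, which, like the floor of 3 counts over a group, cover counting error only, as PCR copies of a molecule are not independent.

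The members and lists were chosen with earlier results of these data known. Every member tested was named, members called in either fit with a group mean of at least 1 CPM were given by library, and up to 4 genes with the smallest p were named from each list of 15 activators and receptors, 18 other inhibitors, 16 ADAM and astacin proteases and 21 matrix substrates. A gene that this rule would name is not reported here. Protein motifs were not searched.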

Additional observations from a re-analysis of the deposited data

Results flagged for a closer look

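Groups of 3 libraries are too small for a check of single samples, so what follows are members whose change on differentiation differed between LIGHT and control cells by edgeR's interaction test (LIGHT minus control, log2). In all 12 libraries these were Mmp3, at 2.65 (adjusted p 0.000243), and Mmp28, at -0.84 (adjusted p 0.0104).

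In the 10 libraries left without the 2 at odds with their labels, 10 values were positive, so the change in LIGHT cells lay above that in control cells. They were 2.99 for Mmp3, 1.96 for Mmp9, 1.36 for Timp2, 1.23 for Timp1, 1.05 for Adamtsl4, 1.04 for Mmp13, 0.84 for Adamts6, 0.65 for Mmp14, 0.58 for Adamts7 and 0.23 for Mmp2. The 2 negative values were -0.72 for Mmp28 and -0.27 for Mmp11. Adjusted p ran from 1.06e-09 for Mmp3 to 0.0482 for Mmp2. Mmp2 and Mmp13 (adjusted p 0.0451) lie close to the threshold.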

How the results depend on the processing

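Counts of members called on differentiation kept within 1.5 times of 22 in control and 19 in LIGHT cells under every alternative run. The line comparisons depended on the 2 libraries at odds with their labels. For LIGHT over control before differentiation, 9 members called became 22 without them (22 also with library totals, a setting chosen after seeing the data), 21 with a replicate block added, and 20 with only the 6 undifferentiated libraries; leaving out 1 library gave 5 to 17, with 5 without any 1 of the undifferentiated control libraries and 17 without differentiated control 1. After differentiation, 0 became 17 (18 with library totals, 17 with the block). For the interaction, 2 became 12 (13 and 11), 4 in DESeq2, 4 in limma on log2(FPKM + 1), and 2 to 6 on leaving out 1 library, with 6 without differentiated control 1 and 4 without differentiated control 2.

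Leaving out the 2 libraries reversed Mmp9 in control cells (2.01 against -0.84, -1.0 with library totals, -0.82 with the block) and in the interaction (1.96, 2.07, 1.96), Adamts1 in control cells (0.25 against -0.45, -0.6, -0.42), Mmp11 in control cells (0.17, 0.19 with the block) and in the interaction (-0.27, -0.27 with the block), and Mmp2 in the interaction (0.23, 0.33 with library totals). The cause was not tested. With CPM in place of FPKM the ratio of proteases to TIMPs was 5.277 and 5.386 in differentiated LIGHT and control cells and 3.038 and 1.47 in undifferentiated LIGHT and control cells, the same order of stages but the other order of the differentiated lines.

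With library totals the all-gene median in control cells shifted to -0.113 (log2). Calls lost most often were Adamtsl5 between undifferentiated lines (13 alternatives), Adamts13 in control cells (10), Adamts1 in LIGHT cells (9, adjusted p 0.0507 to 0.11), Adamts9 (8) and Adamtsl4 (6) between undifferentiated lines, Mmp15 in control cells (5) and Mmp17 in LIGHT cells (5). Same-numbered libraries' deviations from their group means correlated at 0.097, 0.054 and 0.089 for differentiation in control cells. Between differentiated lines they correlated at -0.618, -0.34 and -0.292. The differentiated means include the 2 libraries at odds with their labels, so these values cannot tell whether replicate numbers pair the libraries. Between undifferentiated lines, which hold neither of the 2, the correlations were -0.007, 0.01 and 0.044. With the replicate block in 12 libraries the counts were 22, 18, 6, 0 and 2. Depth limits the 12 untested members, of at most 17 counts a library.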
